A study of Mus musculus with 16 samples.

Results

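Glycogen is the glucose store of skeletal muscle, and the genes that build it, break it down and set its enzymes' phosphorylation were examined as a group of 9: Ugp2, Gyg, Gys1, Gbe1, Pygm, Phka1, Ppp1r3a, Ppp1r3b and Ppp1r3c. They were taken by gene symbol from a table of 23970 symbols measured by RNA-seq in mouse quadriceps. The 16 libraries came from male C57BL/6NTac mice aged 16 weeks, with 4 mice in each of 4 groups. CON mice ate a control diet with 10% of energy from fat and HFD mice a high fat diet with 60%, for 10 weeks. Muscle was taken either under basal conditions (CON-pre, HFD-pre) or 3 h after 1 maximal treadmill bout (CON-post, HFD-post). All mice were accustomed to the treadmill and fasted, and the post groups were not refed after the bout, so every difference between pre and post is a difference between separate mice in that state. The study names no transgene or deletion for any group.

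In muscle, glucose is first activated to UDP-glucose, the reaction of Ugp2. Glycogenin, encoded by Gyg, attaches the first glucose units to itself, glycogen synthase (Gys1 in muscle) lengthens the chain, and the branching enzyme Gbe1 adds the side branches. Glycogen phosphorylase (Pygm in muscle) releases glucose units during contraction, once it is phosphorylated by phosphorylase kinase, whose muscle regulatory alpha subunit is Phka1. The Ppp1r3 proteins bring protein phosphatase 1 (PP1) to the glycogen particle, where it activates the synthase and inactivates the phosphorylase. Ppp1r3a is the large striated muscle form, Ppp1r3b the form best known from liver, and Ppp1r3c, also called PTG (protein targeting to glycogen), is found in many tissues. Much of the control of this pathway acts on the enzymes themselves through phosphorylation and glucose 6-phosphate, which RNA-seq does not see.

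Values are FPKM (fragment counts scaled to transcript length and to the mapped fragments of the library), which are set per length and so allow levels to be compared between genes. The FPKM sum per library was 283575 to 329282, and the relative depth read from the smallest FPKM steps was 0.702 to 1.13 times that of CON-pre library 1. At rest the sum was 305490 to 327559 in CON-pre and 294867 to 303652 in HFD-pre, which did not overlap. After the bout it was 298638 to 329282 in CON-post and 283575 to 314764 in HFD-post, which did. The tests below used FPKM without further scaling, except where a scaling is named. In keeping with the quadriceps label, all 7 skeletal muscle markers were present in every library with a summed level of 50442 to 70331 FPKM. Marker sums of other cell types were far lower, at 57.4 to 198 FPKM for 6 adipocyte genes, 0.216 to 21.7 for 5 liver genes, 259 to 903 for 6 blood genes, 15.01 to 41.2 for 5 macrophage genes and 43.1 to 64.8 for 5 endothelial genes. The sum of 7 slow-fibre genes varied within every group, from 178 to 731 FPKM, against 47726 to 69716 FPKM for 8 fast-fibre genes. All 7 slow-fibre genes had lower estimates on HFD, with median log2 differences of -0.58 at rest and -0.32 after the bout. Their sums still overlapped between the diets in both states. HFD-post library 1 stood at an end of several of these ranges, with the lowest FPKM sum, the lowest muscle and fast-fibre sums and the highest slow-fibre and liver sums. In bulk tissue, fewer cells of a type and less RNA per cell cannot be told apart.

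The 9 members spanned a wide range of levels, and the muscle form of each enzyme was far above its paralogues. Pygm, the muscle phosphorylase, was the most abundant, with a mean of 2296 FPKM over the 16 libraries and rank 14 among all symbols. It was followed by Ugp2 (249 FPKM), Ppp1r3c (198), Gyg (187), Phka1 (175), Gys1 (100.2), Ppp1r3a (44.0) and Gbe1 (18.7). Ppp1r3b, the form best known from liver, had a mean of 0.193 FPKM. In each of the 4 groups Pygm lay above Ugp2, and Gys1, Ppp1r3a, Gbe1 and Ppp1r3b followed one another with no overlap between libraries. Between Ugp2 and Gys1 the order was less firm, since the libraries of Gyg and Phka1 overlapped in CON-pre, HFD-pre and CON-post. Ppp1r3c changed place most, with a mean below those of Gyg and Phka1 in both pre groups and above them in both post groups, with ranges that overlapped those of its neighbours in all 4 groups.

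Pygm made up 99.80 to 99.88% of the summed FPKM of the 3 phosphorylase genes in every library, and Gys1 made up 99.56 to 99.97% of the synthase pair. Brain phosphorylase (Pygb) had a mean of 2.16 FPKM, liver phosphorylase (Pygl) 1.44 FPKM and liver synthase (Gys2) 0.148 FPKM. Phka1 held 98.8 to 99.3% of its pair with Phka2, the alpha subunit best known from liver (mean 1.59 FPKM). Among the targeting subunits, the only ones above 1 FPKM on average were Ppp1r3c and Ppp1r3a, since Ppp1r3f had a mean of 0.813, Ppp1r3e 0.662 and Ppp1r3d 0.404 FPKM, and Ppp1r3g was listed at 0 in 15 of the 16 libraries.

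**Figure D1:**
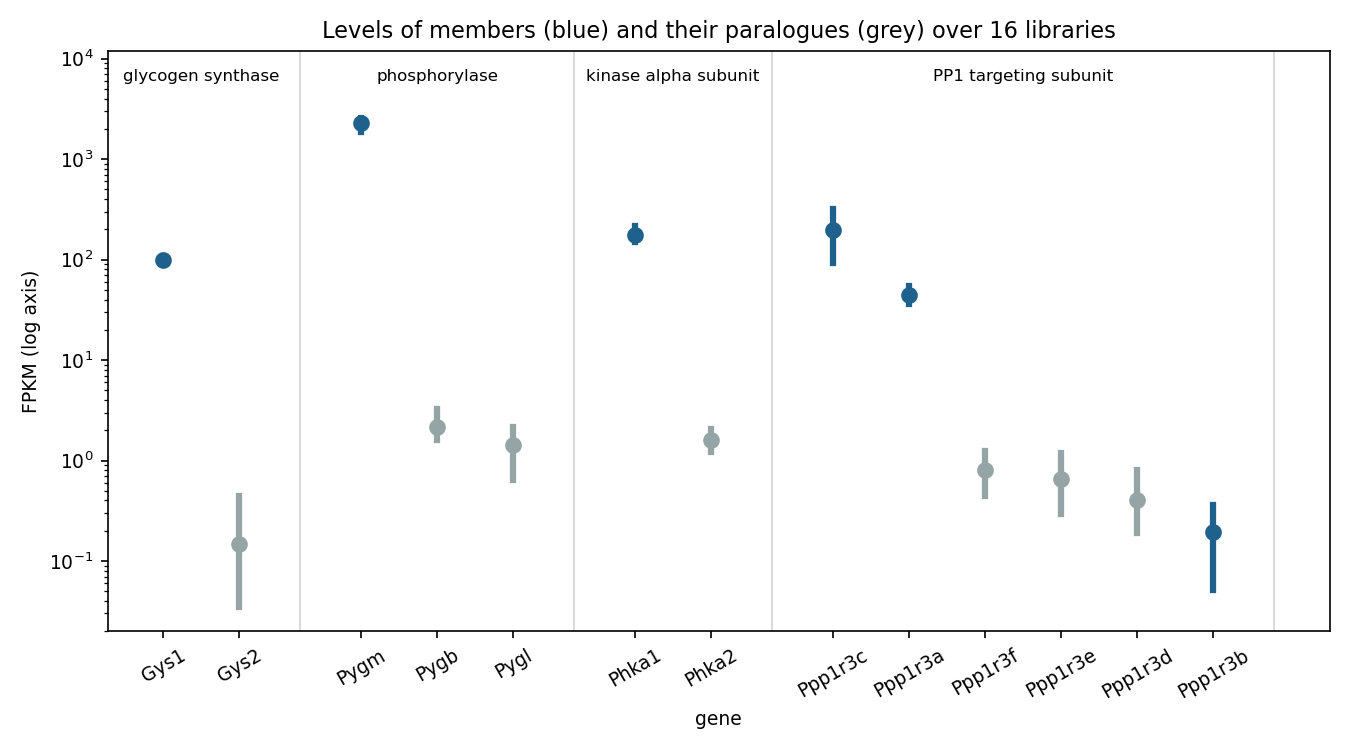
Level in FPKM (log axis) of 4 members' families over 16 libraries, with members in blue and paralogues in grey; points are means and bars run from the lowest to the highest library. Gys1, Pygm and Phka1 lie far above their paralogues, while Ppp1r3b, a member, is lower than Ppp1r3d, Ppp1r3e and Ppp1r3f; Ppp1r3g is not drawn because it was listed at 0 in 15 libraries.

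The members also differed in how much they varied between mice of the same group. Ppp1r3c had a within-group SD of 0.449 on the log2(FPKM + 0.5) scale, higher than 95.9% of the 11256 genes that averaged 0.5 FPKM or more, and its highest library was 3.39 times its lowest. At the other end, Gyg (SD 0.069) and Gys1 (SD 0.071) exceeded only 1.21% and 1.49% of those genes. Abundant genes tend to vary less, and among the 3230 genes over 10 FPKM the corresponding shares were 97.5% for Ppp1r3c, 3.37% for Gyg and 4.24% for Gys1. Glycogenin and synthase thus spanned at most 1.18-fold from the lowest to the highest of 16 mice, across both diets and both states. Pygm (SD 0.102), Ugp2 (0.106) and Phka1 (0.118) were also below the median of 0.176 over the genes tested, and Gbe1 (0.176) and Ppp1r3a (0.186) were near it. Among the genes over 10 FPKM the median was 0.134, and there Gbe1 exceeded 72.2% and Ppp1r3a 75.9% of the genes.

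**Figure D2:**
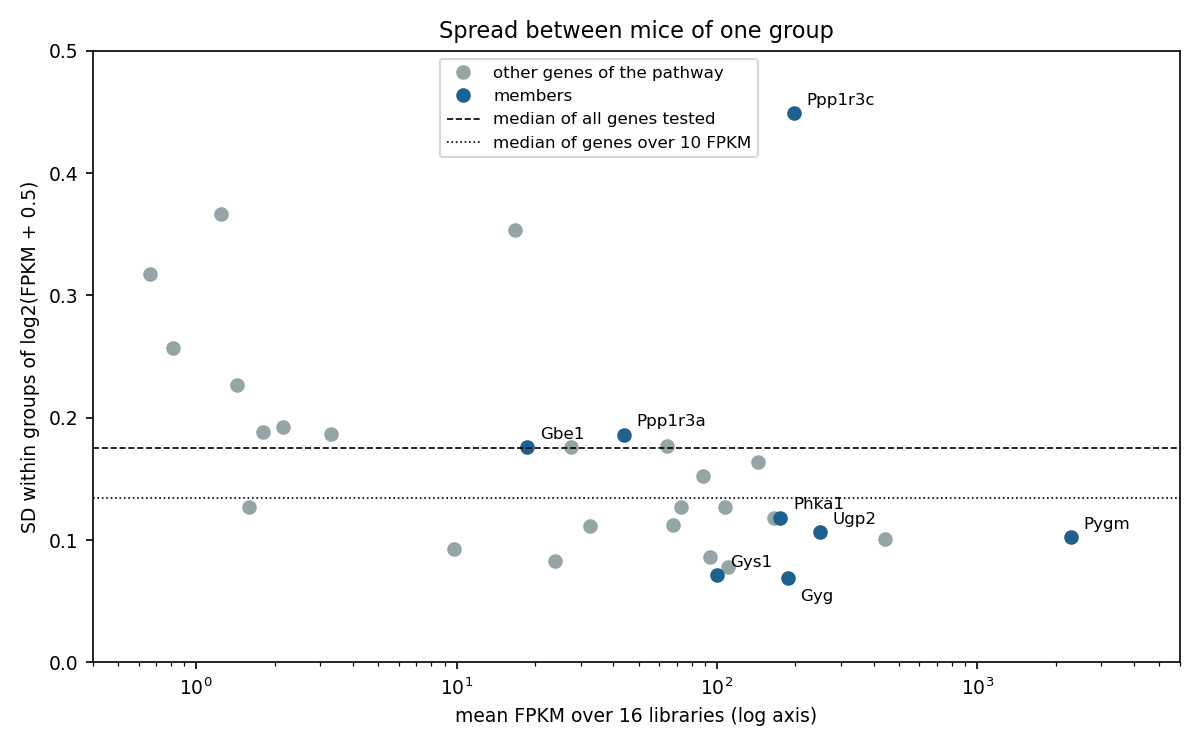
SD within groups of log2(FPKM + 0.5) against the mean FPKM over 16 libraries (log axis), for the 8 members tested (blue, named) and 23 other genes of the pathway (grey), with the medians of all genes tested (dashed) and of genes over 10 FPKM (dotted). Ppp1r3c, at 0.449, lies far above the other members, and Gyg and Gys1, near 0.07, are lowest.

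To ask whether diet or the bout shifted these genes, 1 limma fit over all 16 libraries tested 11256 genes in 7 comparisons, and a gene was called when its p, adjusted over all of them by the Benjamini-Hochberg method, was under 0.05. Ppp1r3b was under the minimum level, so 8 of the 9 members were tested. No member was called in any of the 7 comparisons. Of the 56 member tests, 5 had an unadjusted p under 0.05, and these concerned Ppp1r3c and Ugp2 with the bout and Gbe1 with the diet. Over all genes tested, 3.16 to 18.5% reached that level, depending on the comparison, so the number is near the background. These 3 genes are described first for that reason, that is, after their values were seen.

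**Figure D3:**
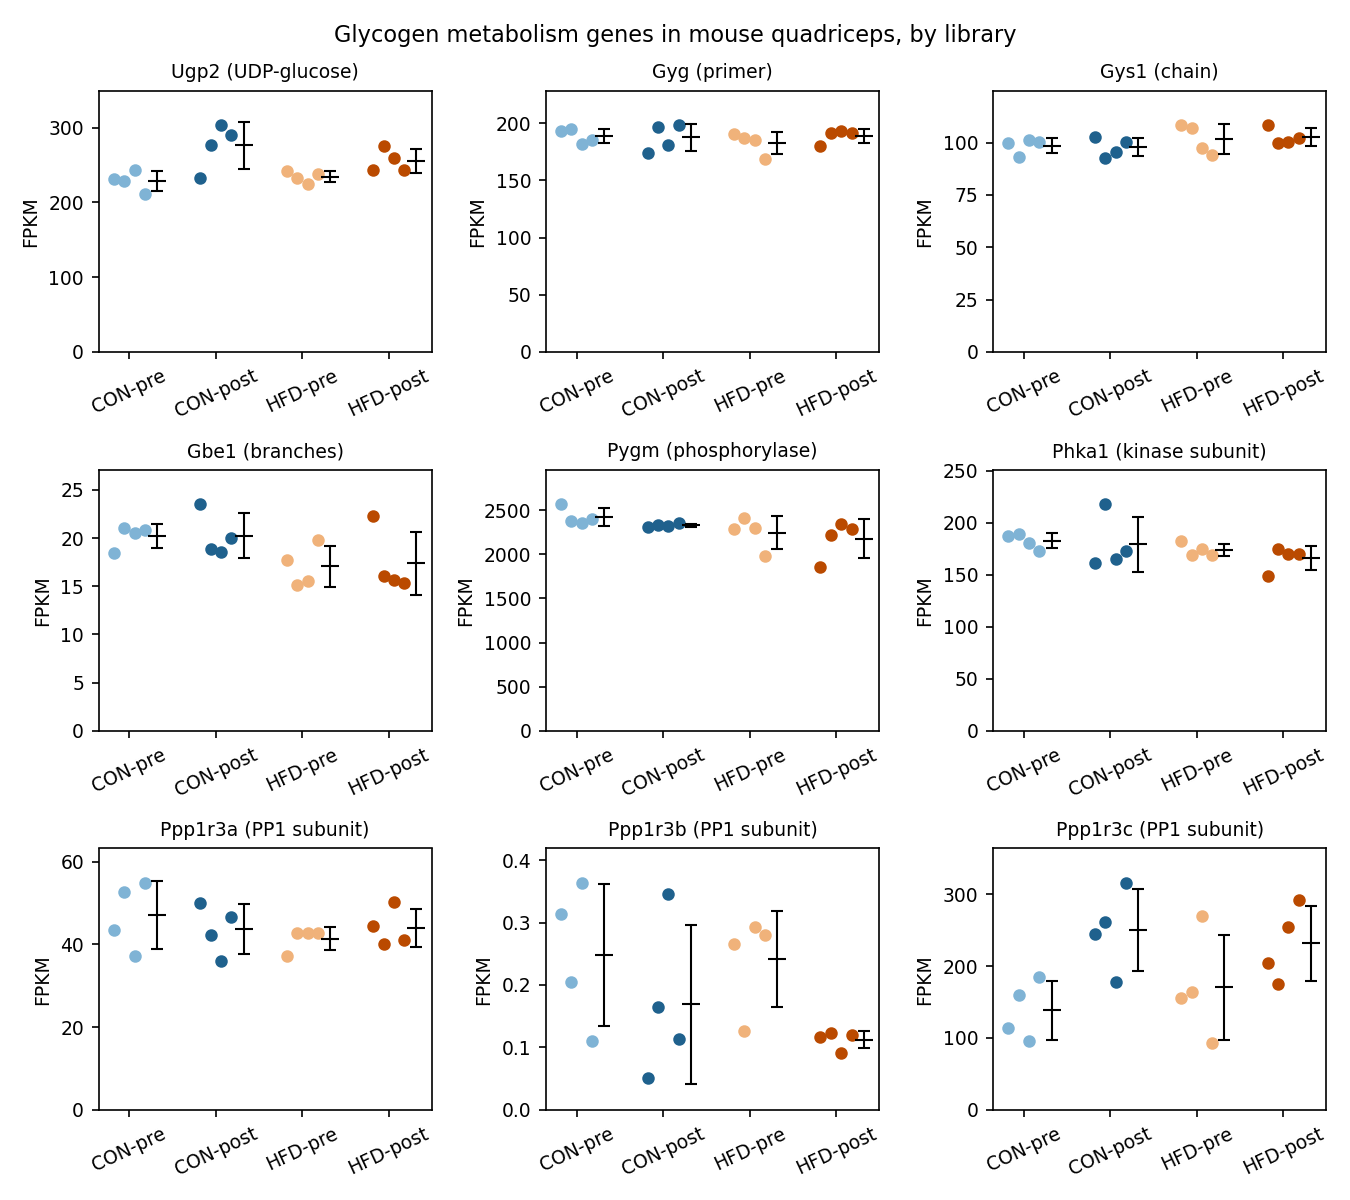
FPKM of the 9 members in each library (points, 4 mice per group, libraries 1 to 4 from left to right), with the mean ± SD of the group beside them; every axis starts at 0. Ppp1r3c is higher on average after the bout on both diets, Ugp2 is higher in 3 of 4 CON-post libraries than in any CON-pre library, and the group means of Gyg and Gys1 lie between 183 and 189 FPKM and between 97.8 and 103 FPKM.

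Ppp1r3c, the PP1 subunit that targets the phosphatase to glycogen (chr19:36731731-36736604, minus strand, GRCm38.p6), showed the largest fold change among the 8 members tested. Its FPKM in CON-pre was 114, 160, 95.6 and 185 in libraries 1 to 4, with a mean of 139 ± 41.2 (SD, n = 4). In CON-post it was 244, 261, 179 and 316, with a mean of 250.03 ± 56.7 (SD, n = 4). The ranges overlapped only because CON-post library 3 lay just under CON-pre library 4. HFD-pre held both the lowest library of all and one of the highest, with 155, 164, 270 and 93.2 FPKM and a mean of 171 ± 73.3 (SD, n = 4). HFD-post had 205, 175, 254 and 293 FPKM and a mean of 232 ± 52.1 (SD, n = 4). On the high fat diet 3 of the 4 resting libraries were below every post library, and HFD-pre library 3 was above 3 of them.

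The level of Ppp1r3c was thus 1.83-fold higher in CON-post than in CON-pre (95% interval 1.21 to 2.74), with an unadjusted p of 0.00642 and a limma adjusted p of 0.191. In HFD-post it was 1.43-fold higher than in HFD-pre (0.950 to 2.15; limma adjusted p = 0.494), with a log2 difference of 0.51 that was 0.26 without HFD-pre library 4, the lowest, and 0.77 without HFD-pre library 3, the highest. The 2 responses could not be told apart, since the diet by exercise interaction was -0.36 ± 0.39 (log2, SE) with a limma adjusted p near 1 (0.99994), and -0.61 without HFD-pre library 4 and -0.10 without HFD-pre library 3. Averaged over the diets, Ppp1r3c was 1.61-fold higher after the bout (1.21 to 2.15; limma adjusted p = 0.0615). An exact permutation of pre and post labels within each diet, a test added to the planned ones, gave p = 0.00857 over 4900 arrangements. Single libraries decided on which side of the threshold this fell: the limma adjusted p was 0.0192 without HFD-pre library 3 and 0.0375 without CON-pre library 4, each the highest of its group, and over all alternatives it ran up to 0.126. For the diet its fold was 1.19 at rest (0.790 to 1.79), 0.929 after the bout (0.618 to 1.40) and 1.05 over both states (0.787 to 1.40; limma adjusted p = 0.951), so differences of this size could not be told from the spread between mice. Over all alternatives the log2 diet difference ran from -0.0047 to 0.50 at rest and from -0.26 to 0.018 after the bout.

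Ppp1r3c also took a larger share of all targeting subunit transcripts after the bout on the control diet. Of the summed FPKM of the 7 Ppp1r3 genes measured, Ppp1r3c held 71.6, 74.7, 70.8 and 76.3% in CON-pre libraries 1 to 4 and 82.5, 85.5, 82.5 and 86.6% in CON-post. These groups did not overlap, and neither did the ratio of Ppp1r3c to Ppp1r3a, the muscle form, which was 2.57 to 3.37 in CON-pre and 4.88 to 6.77 in CON-post. The same share was 67.3 to 85.8% in HFD-pre and 80.3 to 87.1% in HFD-post, which overlapped. The share and the ratio were chosen with the values in view and carry no test.

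**Figure D4:**
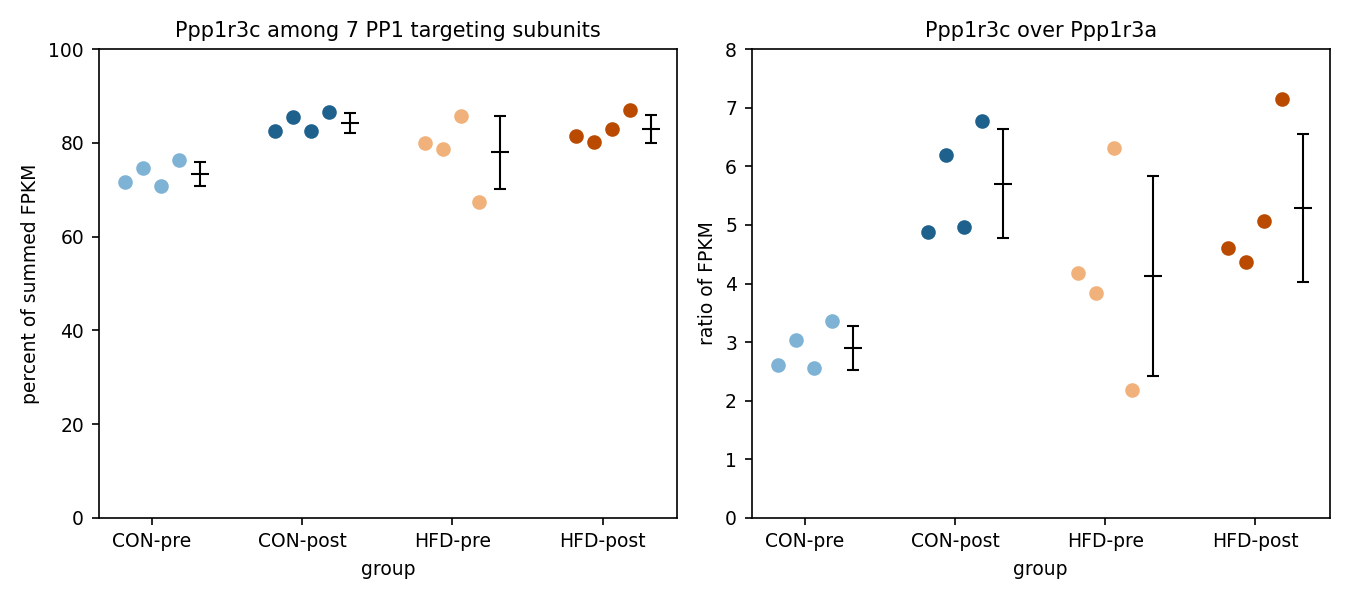
Left, Ppp1r3c as a percent of the summed FPKM of the 7 Ppp1r3 genes; right, the ratio of Ppp1r3c to Ppp1r3a, in each library (points) with the mean ± SD of each group of 4. CON-pre (70.8 to 76.3%) and CON-post (82.5 to 86.6%) do not overlap, whereas HFD-pre spans 67.3 to 85.8% and overlaps HFD-post.

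Over the 16 libraries, the gene most like Ppp1r3c in log2(FPKM + 0.5) among 11255 others was Wbp1l (Pearson r = 0.94), followed by Fkbp5 (0.90) and Odf3l2 (0.89). Fkbp5 encodes a co-chaperone of steroid receptors and is known for its induction by glucocorticoids. With the group means removed, the correlations were 0.90, 0.84 and 0.83. For Ugp2 the highest were Ehd4 (0.86), Cnksr3 (0.85) and Cpt1a (0.83), the last encoding a carnitine palmitoyltransferase, and for Gbe1 they were Fndc5 (0.78), Gm2083 (0.76) and Mtmr14 (0.76). With the group means removed these were 0.67, 0.70 and 0.80 for the partners of Ugp2 and 0.77, 0.66 and 0.67 for those of Gbe1. The points are libraries that share groups and depth, and the genes were picked as the highest of 11255, so the coefficients are descriptions.

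Ugp2, which makes the UDP-glucose that glycogen synthase uses (chr11:21321126-21371267, minus strand, GRCm38.p6), showed a smaller difference with the bout than Ppp1r3c and less spread. Its FPKM was 232, 228, 244 and 211 in CON-pre (mean 229 ± 13.5, SD, n = 4) and 233, 277, 304 and 290 in CON-post (mean 276 ± 30.9, SD, n = 4). CON-post library 1 lay among the resting libraries and the other 3 lay above all of them. In HFD-pre the values were 242, 233, 225 and 238 FPKM (mean 234 ± 7.48, SD, n = 4), and in HFD-post 243, 276, 259 and 244 FPKM (mean 255 ± 15.5, SD, n = 4). Every HFD-post library exceeded every HFD-pre library, although the closest pair, at 243 and 242 FPKM, was nearly level.

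The fold for Ugp2 was 1.20 in CON-post against CON-pre (95% interval 1.07 to 1.35; unadjusted p = 0.00323, limma adjusted p = 0.133) and 1.09 in HFD-post against HFD-pre (0.972 to 1.22; limma adjusted p = 0.570). By the exact permutation test of 4 against 4 the second gave p = 0.0286, the smallest that 70 arrangements allow, and the first 0.0571. That test used FPKM as deposited. The log2 difference on the high fat diet, 0.12, was 0.08 with median-of-ratios scaling, 0.06 with upper-quartile scaling and 0.05 with quantile normalization. Averaged over the diets the fold was 1.14 (1.06 to 1.24; limma adjusted p = 0.0582, and exact p = 0.00327 by permutation within each diet). Without CON-post library 1 the limma adjusted p was 0.0186 in CON-post against CON-pre and 0.00972 over both diets. With that library kept, it was 0.0485 and 0.0191 with array weights, and over all alternatives it ran from 0.0186 to 0.343 and from 0.00972 to 0.165. Neither diet comparison separated the groups, and the interaction for Ugp2 was -0.14 ± 0.11 (log2, SE; limma adjusted p = 0.99994). It was -0.22 without CON-post library 1 and -0.10 without CON-post library 3.

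The promoter windows of both genes are shown because these 2 members were higher after the bout, on average, with the window of Gyg, the member with the smallest spread, for contrast. Each runs from 250 bases before to 50 bases after a RefSeq transcript start (GRCm38.p6), 5′ to 3′ on the gene's strand, with matches to the motifs searched in capitals. The windows are Ppp1r3c chr19:36736555-36736854, Ugp2 chr11:21371218-21371517, the upstream one of its 2 starts, and Gyg chr3:20155067-20155366, all on the minus strand.
Ppp1r3c: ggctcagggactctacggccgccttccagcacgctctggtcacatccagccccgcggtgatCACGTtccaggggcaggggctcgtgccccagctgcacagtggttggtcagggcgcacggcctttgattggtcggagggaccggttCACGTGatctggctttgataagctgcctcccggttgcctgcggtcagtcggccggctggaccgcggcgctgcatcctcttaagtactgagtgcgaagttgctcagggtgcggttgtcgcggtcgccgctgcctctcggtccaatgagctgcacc
Ugp2: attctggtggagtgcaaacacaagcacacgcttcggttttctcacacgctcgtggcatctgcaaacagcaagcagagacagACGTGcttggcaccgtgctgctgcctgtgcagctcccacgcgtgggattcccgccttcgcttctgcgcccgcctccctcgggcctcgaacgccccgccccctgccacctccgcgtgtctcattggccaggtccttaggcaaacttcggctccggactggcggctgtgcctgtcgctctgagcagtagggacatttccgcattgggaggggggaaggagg
Gyg: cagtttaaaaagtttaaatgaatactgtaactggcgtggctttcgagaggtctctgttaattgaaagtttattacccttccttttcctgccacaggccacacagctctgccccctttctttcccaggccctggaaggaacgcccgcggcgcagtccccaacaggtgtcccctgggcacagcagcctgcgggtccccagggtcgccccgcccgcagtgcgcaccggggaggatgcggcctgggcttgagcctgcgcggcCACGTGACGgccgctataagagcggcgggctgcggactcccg
The motifs searched on both strands were TGACG (the core of the cAMP response element), CACGTG (the E-box), ACGTG (the core of the hypoxia response element, which lies inside CACGTG on both strands), AAAGGTCA (the NR4A response element) and AGGTCA (the core site of nuclear receptors, inside it). Ppp1r3c held CACGTG 104 bases before the start and a further ACGTG on the opposite strand 189 bases before it. Ugp2 held ACGTG 169 bases before the start. Gyg also held CACGTG, 8 bases after the start, overlapping TGACG. Of 32851 windows of this length, 7.15% held CACGTG, 19.6% ACGTG, 20.8% TGACG, 16.3% AGGTCA and 1.51% AAAGGTCA. Windows were found for 8 members (9 windows), and neither AGGTCA nor AAAGGTCA occurred in any of them. No window was found for Ppp1r3b.

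Gbe1, the branching enzyme (chr16:70313949-70569720, GRCm38.p6), had the largest diet difference among the members when both states were averaged. Its FPKM was 18.4, 21.1, 20.6 and 20.9 in CON-pre and 17.7, 15.1, 15.6 and 19.8 in HFD-pre, with means of 20.2 ± 1.23 and 17.1 ± 2.17 (SD, n = 4 each). After the bout it was 23.6, 18.9, 18.5 and 20.0 in CON-post and 22.3, 16.1, 15.7 and 15.4 in HFD-post, with means of 20.2 ± 2.31 and 17.4 ± 3.31 (SD, n = 4 each). In both states 3 of the 4 HFD libraries lay below every CON library and the fourth lay among them. Over both states Gbe1 was 0.849 times as high on HFD as on CON (95% interval 0.752 to 0.959), with an unadjusted p of 0.0117, an exact p of 0.0184 by permutation within each state and a limma adjusted p of 0.261. Without HFD-post library 1 the log2 difference was -0.30 in place of -0.24, and the limma adjusted p was 0.0593. With median-of-ratios scaling the difference was -0.22 (limma adjusted p = 0.383). The post libraries highest in Gbe1, CON-post 1 and HFD-post 1, were also those with the highest slow-fibre sum of their groups, 686 and 731 FPKM. At rest this was not so: the highest slow-fibre sums, 694 FPKM in CON-pre library 4 and 502 in HFD-pre library 3, went with 20.9 and 15.6 FPKM of Gbe1, neither the highest of its group. With a slow-fibre score as a covariate, added after the data were seen, the difference was -0.18 (limma adjusted p = 0.305). All 7 slow-fibre genes were themselves lower on HFD over both states, with a median log2 difference of -0.46. None of them had an unadjusted limma p under 0.05. The score thus ran with the diet, and this fit cannot tell the 2 apart. The bout left no detectable difference in Gbe1, with a fold of 1.00 over both diets (0.889 to 1.14).

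Gyg and Gys1, the primer and the chain-lengthening enzyme, gave the tightest bounds. Gyg (chr3:20122083-20155117, GRCm38.p6) ran from 169 to 199 FPKM over the 16 libraries, and its group means were 189 in CON-pre, 183 in HFD-pre, 188 in CON-post and 189 in HFD-post. Gys1 (chr7:45434839-45456617, GRCm38.p6) ran from 92.8 to 109 FPKM, with group means of 98.6, 102, 97.8 and 103 in the same order. For the bout over both diets, the 95% interval of the fold was 0.951 to 1.08 for Gyg and 0.939 to 1.07 for Gys1. For diet over both states it was 0.928 to 1.05 for Gyg and 0.977 to 1.11 for Gys1. The ratio of Gys1 to Gyg was 0.473 to 0.604 in all 16 libraries.

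Pygm, the muscle phosphorylase, had a lower mean on the high fat diet in both states, without a call and with a direction that turned under 1 scaling. Its gene lies at chr19:6384408-6398464 (GRCm38.p6). The level was 2576, 2378, 2350 and 2398 FPKM in CON-pre and 2290, 2410, 2302 and 1982 FPKM in HFD-pre. The CON-post libraries were closely alike, with 2315, 2331, 2325 and 2357 FPKM, whereas HFD-post had 1860, 2221, 2350 and 2286 FPKM. In each state 3 of the 4 HFD libraries were below every CON library. Over both states Pygm was 0.928 times as high on HFD as on CON (95% interval 0.857 to 1.00; limma adjusted p = 0.505), with an exact p of 0.0155 by permutation within each state. With quantile normalization the log2 difference was 0.05 in place of -0.11 over both states, 0.06 in place of -0.11 at rest and 0.03 in place of -0.10 after the bout, so no direction is given for Pygm. Single libraries also moved it. Without HFD-pre library 4 the difference at rest was -0.05, and without HFD-post library 1 it was -0.03 after the bout and -0.07 over both states. The summed muscle markers were 63912 to 70331 FPKM in CON-pre and 55997 to 61659 FPKM in HFD-pre, which did not overlap, and 55884 to 65046 in CON-post and 50442 to 60720 in HFD-post, which did. Their part in the values of Pygm was not tested. The ratio of Pygm to Gys1 was 23.2 to 25.8 in CON-pre, 21.0 to 23.6 in HFD-pre, 22.6 to 25.1 in CON-post and 17.1 to 23.5 in HFD-post, where library 1 gave the 17.1 and the others were 22.3 or more.

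Phka1, the regulatory alpha subunit of phosphorylase kinase in muscle (chrX:102513975-102644301, GRCm38.p6), had group means of 183 ± 7.38 FPKM in CON-pre, 174 ± 6.14 in HFD-pre, 179 ± 26.4 in CON-post and 166 ± 11.3 in HFD-post (SD, n = 4 each). Most of the spread in CON-post came from library 2, at 218 FPKM, while the other 3 lay between 161 and 172. The fold over both states for diet was 0.941 (95% interval 0.863 to 1.03), and over both diets for the bout 0.964 (0.884 to 1.05).

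Ppp1r3a, the striated muscle targeting subunit (chr6:14713822-14755274, GRCm38.p6), had group means of 47.1 ± 8.21 FPKM in CON-pre, 41.3 ± 2.81 in HFD-pre, 43.7 ± 6.08 in CON-post and 44.0 ± 4.57 in HFD-post (SD, n = 4 each). All 4 ranges overlapped, and the fold for the bout was 0.934 on CON (95% interval 0.780 to 1.12) and 1.06 on HFD (0.886 to 1.27). The paralogues Ppp1r3a and Ppp1r3c therefore differed in their values beside the bout, with folds over both diets of 0.995 and 1.61, though this difference between genes was not itself tested.

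Ppp1r3b (chr8:35375694-35388139, GRCm38.p6) had the lowest level of the members, at rank 12686 of the 23970 symbols by mean FPKM. It was 0.313, 0.205, 0.364 and 0.110 FPKM in CON-pre, 0.266, 0.126, 0.293 and 0.280 in HFD-pre, 0.0510, 0.165, 0.346 and 0.114 in CON-post and 0.116, 0.123, 0.0917 and 0.119 in HFD-post. All HFD-post libraries were below all HFD-pre libraries (exact permutation p = 0.0286, the smallest possible), and the CON groups overlapped (exact permutation p = 0.343). With the bout averaged over the diets the exact permutation p was 0.0412. The liver marker sum was 13.9, 0.309, 0.264 and 19.3 FPKM in the HFD-pre libraries, 21.7, 0.338, 2.92 and 0.216 in the HFD-post libraries and 18.1, 5.02, 13.0 and 0.346 in the CON-pre libraries. In CON-pre the libraries with more liver marker signal, 1 and 3, had the most Ppp1r3b and library 4 had the least of both. The other 3 groups did not keep this order, and in CON-post, where the liver marker sums were 0.748, 0.271, 0.711 and 0.363 FPKM, library 1 had the highest sum and the least Ppp1r3b. The part of liver transcripts in these levels was not tested. At values this low each level may rest on few fragments, although no counts were available to check it.

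**Figure D5:**
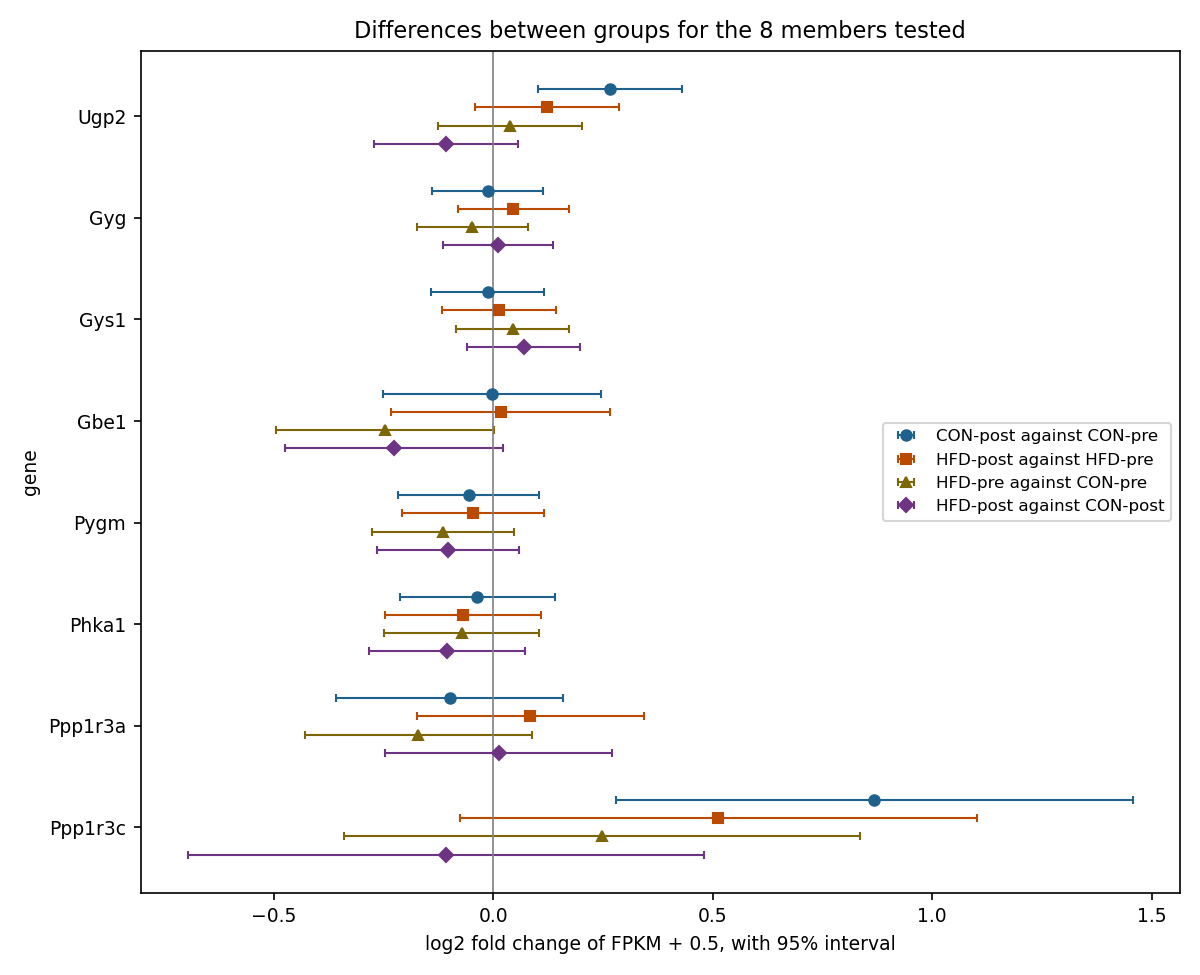
Log2 fold change of FPKM + 0.5 with its 95% interval for the 8 members tested (vertical axis), in the 4 comparisons between single groups (colours and symbols). Intervals for Ugp2 and Ppp1r3c in CON-post against CON-pre lie above 0, and every other interval drawn includes 0; no member passed the adjusted threshold.

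Set against all genes tested, the members' counts were as follows, with limma throughout. The exact permutation test of 4 against 4 is under 0.05 exactly where the groups do not overlap, so 1 background share serves both. In HFD-pre against CON-pre, 0 of 8 members were called where 0.346% of all genes were, 0 had an unadjusted p under 0.05 (8.25% of all genes) and 0 had groups that did not overlap (5.62%). In CON-post against CON-pre, 0 of 8 were called where 1.11% of all genes were, 2 had an unadjusted p under 0.05 (Ppp1r3c and Ugp2, both higher; 11.1% of all genes) and 0 had groups that did not overlap (5.82%). In HFD-post against HFD-pre, 0 of 8 were called where 0.542% of all genes were, 0 had an unadjusted p under 0.05 (11.7% of all genes) and 1, Ugp2, had groups that did not overlap (6.81%). Ppp1r3b, which was not in the fit, was a further one. In HFD-post against CON-post, 0 of 8 were called where 0.151% of all genes were, 0 had an unadjusted p under 0.05 (6.29% of all genes) and 0 had groups that did not overlap (3.16%).

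In the diet by exercise interaction, 0 of 8 members and 0% of all genes were called, and 0 members had an unadjusted p under 0.05 where 3.16% of all genes did. With the bout averaged over the diets, 0 of 8 were called where 3.86% of all genes were. There Ppp1r3c and Ugp2 made 2 of 8 at an unadjusted p under 0.05 (18.5% of all genes) and the same 2 by the exact test (18.4%), with Ppp1r3b, outside the fit, a further one by the exact test. With diet averaged over the states, 0 of 8 were called where 0.959% of all genes were, with 1 at an unadjusted p under 0.05 (Gbe1; 10.4% of all genes) and 2 by the exact test (Gbe1 and Pygm; 10.9%). Each of these shares, taken of 8 genes, comes to less than 2 genes, so the members' counts are near the background. The median log2 fold change of the 8 members was -0.01 in CON-post against CON-pre (all genes -0.01) and 0.03 in HFD-post against HFD-pre (all genes 0.04). For the diet it was -0.06 in HFD-pre against CON-pre (all genes -0.03) and -0.10 in HFD-post against CON-post (all genes 0.00380).

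The wider pathway was read from a list of 26 other genes, of which 23 were tested, written from textbook knowledge with some of the study's results known. It holds the remaining subunits of phosphorylase kinase, phosphoglucomutases, PP1 catalytic subunits, synthase kinases and the genes of Lafora disease. Of these, 2 were called, each in 1 comparison. The entry listed as Pgm2 is named for the phosphoglucomutases, which interconvert glucose 1-phosphate and glucose 6-phosphate. It fell with the diet, from 499, 464, 508 and 503 FPKM in CON-pre to 425, 388, 398 and 414 in HFD-pre. After the bout it was 422, 530, 426 and 458 FPKM in CON-post and 375, 438, 417 and 386 in HFD-post. The groups did not overlap at rest but did after the bout, and over both states the log2 difference was -0.23 ± 0.05 (SE; limma adjusted p = 0.0492, with 0.959% of all genes called). The names Pgm1 and Pgm2 were exchanged between mouse annotations, so the symbol alone does not settle which locus, and so which enzyme of the pair, this is. The entry held 99.4 to 99.8% of the summed FPKM of the pair. The call was close to the threshold and held in 11 of 27 alternatives, with limma adjusted p from 0.00902 to 0.108. It was kept without CON-post library 1, CON-post library 3 or HFD-post library 2 and lost without any 1 of the other 13 (0.0501 to 0.107).

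Nhlrc1, which encodes the ubiquitin ligase malin that is mutated in Lafora disease, a disorder of abnormal glycogen, fell with the bout. It was 1.89, 1.83, 2.09 and 2.81 FPKM in CON-pre and 1.35, 1.76, 1.60 and 1.75 in CON-post, which did not overlap. In HFD-pre it was 1.98, 2.12, 1.63 and 2.47 FPKM, and in HFD-post 1.55, 1.65, 1.29 and 1.14, where only HFD-pre library 3 lay within the post range. Over both diets the log2 difference was -0.37 ± 0.09 (SE; limma adjusted p = 0.0393, with 3.86% of all genes called). This call held in 15 of 27 alternatives, with limma adjusted p from 0.0166 to 0.0783. It was kept without CON-pre library 2, HFD-pre library 3, CON-post library 2 or 4, or HFD-post library 1 or 2, and lost without any 1 of the other 10 (0.0536 to 0.0783).

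In the other 5 comparisons 0 of the 23 genes were called by limma. At rest, 19 of the 23 were lower on HFD and 4 higher, with 6 at an unadjusted p under 0.05, all lower, and 4 by the exact test, where 8.25% and 5.62% of all genes were. Among them, singled out after their values were seen, were Pgm2, Pygl, the kinase subunits Phka2 and Phkb, and Stbd1, a glycogen-binding protein. The median log2 difference of the 23 was -0.10, against -0.03 over all genes, while the FPKM sum and the muscle marker sum were also lower in HFD-pre, as given above. The adipocyte marker sum was 123 to 197 FPKM in CON-pre and 63.6 to 76.6 FPKM in HFD-pre, which did not overlap, although 3 of its 6 genes were higher and 3 lower, with 2 called. The part of these sums in the values of the pathway genes was not tested. In CON-post against CON-pre 3 of the 23 had an unadjusted p under 0.05 (11.1% of all genes) and 1 an exact p under 0.05 (5.82%), in HFD-post against HFD-pre 4 (11.7%) and 1 (6.81%), and in HFD-post against CON-post 4 (6.29%) and 1 (3.16%). In the interaction 1 had an unadjusted p under 0.05 (3.16% of all genes). With the bout averaged over the diets 7 of the 23 had an unadjusted p under 0.05 (18.5% of all genes) and 6 an exact p under 0.05 (18.4%). With diet averaged over the states these were 4 (10.4%) and 4 (10.9%). Pygl, the liver phosphorylase, was 1.94 ± 0.232 FPKM in CON-pre and 1.18 ± 0.250 in HFD-pre (SD, n = 4 each), without overlap (limma adjusted p = 0.237).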

How the data were processed

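Poly(A) RNA of quadriceps was sequenced with a stranded library kit, 4 mice per group in 4 groups taken from the sample titles. The authors deposited 1 table of FPKM per gene symbol, made with TopHat and Cufflinks on mm9 per the labels. Gene positions listed by the study lie at GRCm38 rather than mm9 coordinates, so the build used is uncertain. The methods give only an approximate read total for all samples alike and the labels no tool version. The table holds no counts, so no counting interval is given. Entries with date-like names (27, 0.0771% of FPKM) were left out, and 260 symbols with several entries were summed, none of them a member. Gene positions and promoter windows are RefSeq GRCm38.p6, and no FPKM value depends on them.

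Values were tested as log2(FPKM + 0.5) with limma 3.58.1 (R 4.3.3), with a mean-variance trend, for genes with a mean of 0.5 FPKM or more over 16 libraries. Fold changes on this scale understate those of low genes. Exact two-sided permutation tests were run for single genes (scipy 1.17.1). The fit was tested on simulated independent values with added differences larger than any found for the members, so that test does not cover differences of their size. The members, gene lists and tests were chosen with earlier results of these data known. The genes named were the 9 members, their paralogues and any pathway gene called, and others are said to have been singled out. Alternatives covered the pseudocount, the filter, 3 scalings, trend, weights, the groups fitted, a replicate block, each library left out and a slow-fibre covariate. Some results of single pathway genes are not reported here.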

Additional observations from a re-analysis of the deposited data

Results flagged for a closer look

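For the 9 members and the 2 pathway genes called, each of 44 groups of 4 libraries was examined for a library whose gap to the nearest of the others took up most of the group's range. In 4 groups a library stood apart, where chance would give about 1 in 20 groups if the values were independent and normal. The 44 groups share the same 16 libraries, and whether 4 is more than chance was not tested. HFD-post library 1 did so in 2 genes: Gyg was lowest there, at 179.8 FPKM against 191 to 193 in the other 3, and Gbe1 was highest, at 22.3 FPKM against 15.4 to 16.1. That library also had the lowest Pygm (1860 FPKM) and Phka1 (149 FPKM) of all 16. In HFD-pre, Ppp1r3a was 37.1 FPKM in library 1 against 42.7 to 42.8 in the other 3, and Ppp1r3b was 0.126 FPKM in library 2 against 0.266 to 0.293.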

How the results depend on the processing

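Over 28 alternatives (27 for the interaction and the averages), the count of 0 members called stayed at 0 in 5 of the 7 comparisons. In CON-post against CON-pre, 1 member, Ugp2, was called with array weights (limma adjusted p = 0.0485), and leaving out a library gave 0 to 1. With the bout averaged over the diets, 1 member, Ugp2, was called with median-of-ratios scaling (0.0362) and with array weights (0.0191), and leaving out a library gave 0 to 1. The cause was not tested. Of the 56 member tests, 29 kept their sign in every alternative, as did 17 of the 20 whose estimate exceeded 1 SE. The other 3 were the diet differences of Pygm, which turned with quantile normalization to 0.0632 at rest, 0.0330 after the bout and 0.0481 over both states (log2; limma adjusted p 0.811 to 0.986); the cause was not tested. The 5 with an unadjusted p under 0.05 kept their direction throughout.

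The replicate numbers did not pair the libraries: same-numbered libraries deviated from their group means with correlations of -0.22 to 0.21, over 0.1 in 5 of 24 pairs, and 6 of 16 libraries were closest to their own number. With a replicate block 0 members were called in each comparison, the smallest limma adjusted p being 0.0886, and the calls of Pgm2 (0.108) and Nhlrc1 (0.0584) were lost.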
